A study of Mus musculus with 12 samples.

Results

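Eicosanoid synthesis was examined through 10 enzyme and carrier genes, Alox15, Alox5, Alox5ap, Ltc4s, Lta4h, Cyp4f18, Ptgs1, Ptgs2, Hpgds and Tbxas1, which make or inactivate leukotrienes, prostanoids and other oxidised lipids. They were picked by gene name, for their place in the pathway, from a count table of 47643 genes. Earlier results of these data were known when they were picked. All 10 were among the 13681 genes with enough counts to be tested. The cultures were bone marrow-derived monocytes (BMMs) of wild-type (WT) BALB/c mice, differentiated into osteoclasts in medium with M-CSF and RANKL, with RNA taken on day 3 for bulk RNA-seq. All 3 groups shared this strain, genotype and medium. Unstimulated osteoclasts (OCsCtr) received nothing further. Osteoclasts stimulated with eosinophils (OCsEo) were given 2 sorted eosinophils per BMM for the first 48 h. Osteoclasts stimulated with eosinophil supernatant (OCsEoS) were given medium from cultured eosinophils at a 1:2 dilution for the same time. The cells were then washed and given fresh medium for the last day. The eosinophils were granulocytes positive for CD45 and Siglec-F with intermediate CD125, sorted from IL-5tg/4get mice, which carry an Il5 transgene and have many eosinophils, after their blood and marrow had been pooled. Each group had 4 libraries. The study's methods call them biological replicates, but the labels do not say whether each came from a separate mouse. The p-values thus set group differences against the spread between these libraries, which may not stand for the spread between mice. The age of the mice is not given in the sources used here.

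Eicosanoids are made from arachidonate that phospholipases free from membranes. Lipoxygenases add oxygen to it, 5-lipoxygenase together with its activating protein FLAP on the way to leukotrienes and 12/15-lipoxygenase on the way to hydroxy acids, lipoxin precursors and oxidised phospholipids. Cyclooxygenases convert it to prostaglandin H, from which terminal synthases make prostaglandins and thromboxane. Eosinophils are rich in 12/15-lipoxygenase and in the enzymes of cysteinyl leukotrienes, while monocytes and macrophages hold 5-lipoxygenase, FLAP and cyclooxygenases, and prostaglandin E2 and leukotrienes are known to act on bone resorption.

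Total counts ranged from 27837530 to 40327869 per library, so that 3 counts, used as the floor of detection, equalled 0.0769 to 0.107 reads per 1000000 counts (CPM). CPM values are scaled by TMM, edgeR's correction for library composition. The 10 osteoclast markers summed to 28358 to 34496 CPM in OCsCtr, 18093 to 23205 CPM in OCsEo and 14942 to 22171 CPM in OCsEoS, and 8 of the 10 were called lower in each stimulated group than in OCsCtr. The 7 macrophage markers summed to 6344 to 6970, 6483 to 8008 and 6011 to 7125 CPM in the same order, with 0 called in OCsEo (4 at an unadjusted edgeR p under 0.05) and, in OCsEoS, 2 called higher (Adgre1 and C1qa) and 1 lower (Csf1r). The 10 neutrophil markers summed to 314 to 457 CPM in OCsCtr, 457 to 611 CPM in OCsEo and 358 to 427 CPM in OCsEoS. Of these, Camp and Elane were called higher in OCsEo than in OCsCtr (6 of 10 at an unadjusted edgeR p under 0.05). In OCsEoS against OCsCtr 0 were called (4 at an unadjusted p under 0.05). Ngp, Mpo and Ltf were called lower in OCsEoS than in OCsEo (8 of 10 at an unadjusted p under 0.05). No markers of basophils or mast cells, megakaryocytes or platelets, T cells or B cells were called by edgeR in any comparison, and at an unadjusted p under 0.05 there were 0 to 3 of them per list and comparison. In bulk RNA, fewer cells of a type and less RNA per cell cannot be told apart.

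A gene was called where edgeR's quasi-likelihood test gave a Benjamini-Hochberg adjusted p under 0.05 over all genes tested and the log2 fold change exceeded 0.5 in size. In OCsEo, 3 of the 10 members rose against OCsCtr, namely Alox15, Cyp4f18 and Alox5ap, while 3.27% of all genes tested were called higher. No member was called lower in OCsEo, where 2.61% of all genes were. In OCsEoS, Alox5ap alone rose (background 3.63% called higher) and 0 members were called lower (background 4.11%). Between the stimulated groups, Alox15 and Cyp4f18 were lower in OCsEoS than in OCsEo (background 0.307%), and 0 were called higher (background 0.0731%). The medians of the 10 log2 fold changes were 0.32, 0.24 and -0.21 for OCsEo against OCsCtr, OCsEoS against OCsCtr and OCsEoS against OCsEo, beside medians close to 0 over all genes. At an unadjusted p under 0.05, 6, 4 and 3 members passed edgeR's test in these comparisons. The share of all genes at this unadjusted p was not counted, for the members, the markers or the lists. At edgeR's adjusted p alone, 5 and 3 members passed in OCsEo and OCsEoS against OCsCtr, beside 2382 and 3151 of all 13681 genes. DESeq2 on all 12 libraries called the same members. The first 2 comparisons share the OCsCtr libraries. Alox15 and Alox5ap were among genes that the study had already picked from these libraries, so their direction here is no independent evidence. All members were chosen with earlier results of these data known, so the counts and medians of the set are no independent evidence either.

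**Figure D1:**
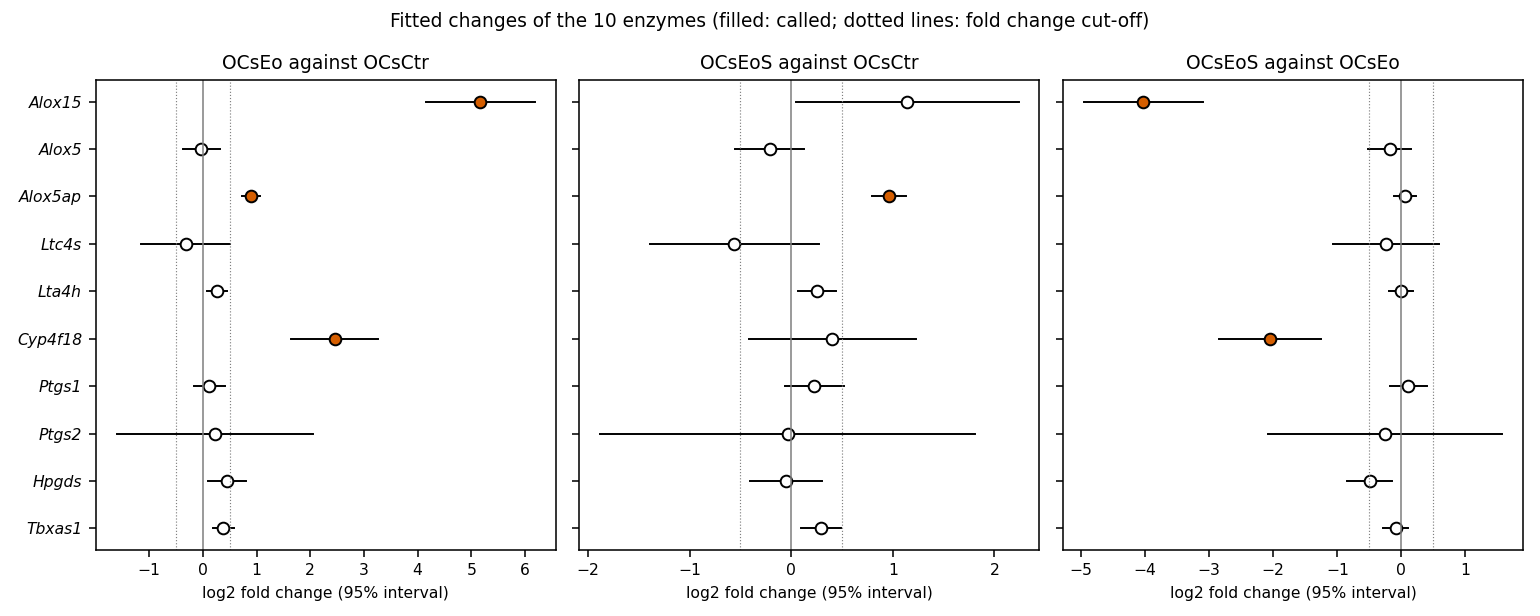
Fitted log2 fold changes (x axis) of the 10 enzymes (y axis) in the 3 comparisons, 1 panel each, as points with 95% intervals from 4 libraries per group. Filled points were called and dotted lines mark the cut-off of 0.5, with Alox15 at 5.17 in OCsEo and Alox5ap near 1 in both stimulated groups. The x axes differ between panels.

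The libraries of a group did not overlap those of OCsCtr for 6 members in OCsEo, all higher (Alox15, Alox5ap, Lta4h, Cyp4f18, Hpgds and Tbxas1), beside 21.5% of all genes tested without overlap in either direction. The same held for 4 members in OCsEoS, all higher (Alox5ap, Lta4h, Ptgs1 and Tbxas1), beside 25.7% of all genes. Between the stimulated groups, Alox15 and Cyp4f18 did not overlap, beside 5.47% of all genes.

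**Figure D2:**
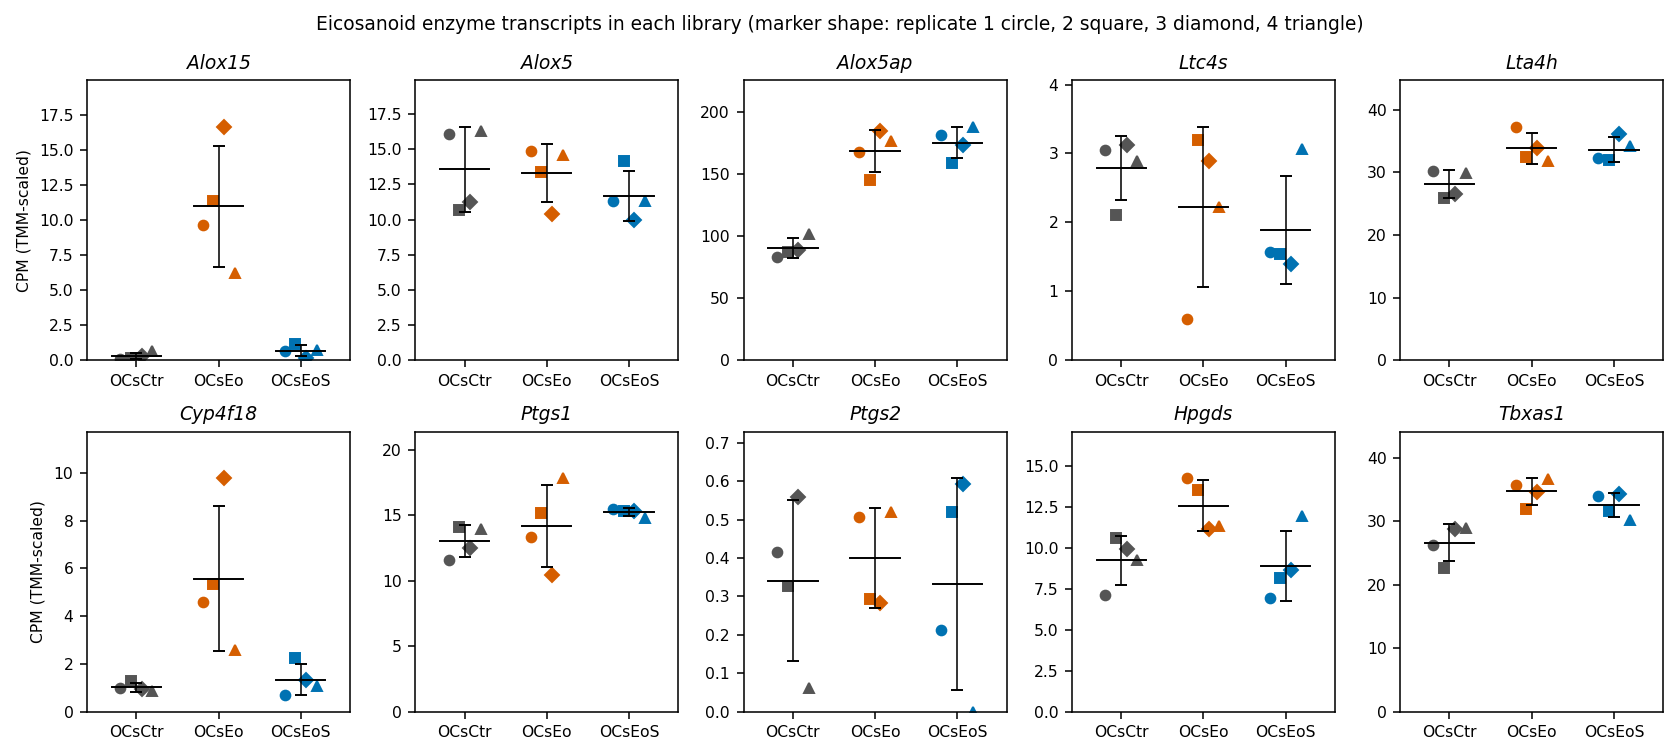
TMM-scaled CPM (y axis, starting at 0) of each of the 10 enzymes in OCsCtr, OCsEo and OCsEoS. Points are libraries, with a shape per replicate number, and the bar and whiskers give the mean and SD (n = 4). Alox15 and Cyp4f18 stand high in the 4 OCsEo libraries, and Alox5ap in all 8 stimulated libraries.

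Alox15 (ENSMUSG00000018924) encodes 12/15-lipoxygenase and lies on chromosome 11 of GRCm38 from 70344152 to 70352031 on the minus strand. It had 0.104, 0.148, 0.294 and 0.653 CPM in OCsCtr 1 to 4, from 3, 5, 10 and 21 counts. In OCsEo 1 to 4 it had 9.68, 11.4, 16.7 and 6.24 CPM, from 324, 427, 650 and 180 counts. In OCsEoS 1 to 4 it had 0.641, 1.13, 0.178 and 0.729 CPM, from 18, 39, 6 and 25 counts. Every OCsEo library thus lay above all 8 others, while OCsCtr and OCsEoS overlapped, and OCsCtr 1 was at the floor. Alox15 rose in OCsEo with a log2 fold change of 5.17 (SE 0.49, edgeR adjusted p = 8.42e-07), a 36.0-fold change. Without any single library this value was 4.89 to 5.86. In OCsEoS the log2 fold change was 1.14 (SE 0.52, 95% interval 0.05 to 2.24, edgeR adjusted p = 0.129), which was not called. It passed at 1.83 without OCsCtr 4 (edgeR adjusted p = 0.0287), at 1.47 without OCsEoS 3 (edgeR adjusted p = 0.0395), and at 1.14 without a filter on low counts (edgeR adjusted p = 0.0326). The difference between the stimulated groups, OCsEoS less OCsEo, was -4.03 (SE 0.44, edgeR adjusted p = 6.26e-05).

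Cyp4f18 (ENSMUSG00000003484) encodes a cytochrome P450 that hydroxylates leukotriene B4 and so removes it, and it lies on chromosome 8 from 71988482 to 72009626 on the minus strand. Its levels were 0.971, 1.28, 0.942 and 0.871 CPM in OCsCtr 1 to 4. They were 4.57, 5.34, 9.77 and 2.60 CPM in OCsEo 1 to 4, and 0.712, 2.26, 1.31 and 1.08 CPM in OCsEoS 1 to 4. The OCsEo libraries again lay above all others, with the highest OCsEoS library just under the lowest of them. Cyp4f18 rose in OCsEo with a log2 fold change of 2.45 (SE 0.39, edgeR adjusted p = 2.25e-04), a 5.48-fold change. In OCsEoS against OCsCtr it was at 0.40 (SE 0.39, 95% interval -0.42 to 1.23, edgeR adjusted p = 0.523). The difference OCsEoS less OCsEo was -2.05 (SE 0.38, edgeR adjusted p = 0.0148). This call was lost without OCsEo 3 (-1.63, edgeR adjusted p = 0.0569), without OCsEoS 1 (-1.85, edgeR adjusted p = 0.0504) or without OCsEoS 3 (-2.04, edgeR adjusted p = 0.0647). Exons of Cyp4f18 overlap those of Zfp961 on the opposite strand, and the sources used here do not state whether reads were counted by strand, so that reads of this neighbour cannot be told apart. The level of Zfp961 was 10.4 ± 1.77 CPM in the controls (SD, n = 4), against 11.1 ± 0.529 with eosinophils and 12.02 ± 2.40 with supernatant, and it was not called in either stimulated group (log2 fold changes 0.09 and 0.21, edgeR adjusted p = 0.758 and 0.377). Of the other members with such a neighbour over an exon, it had at most 4 counts in any library for Alox5ap, 17 for Ltc4s and 0 for Ptgs1 and Tbxas1.

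Levels of both genes are given beside the eosinophil markers, since eosinophils had been added to the OCsEo cultures. The 10 markers summed to 56.4 to 73.4 CPM in OCsCtr, 55.4 to 69.7 CPM in OCsEo and 48.7 to 54.4 CPM in OCsEoS. The eotaxin receptor gene Ccr3 made up 76.3% to 97.5% of this sum in every library. Without Ccr3 the sums were 5.10 to 10.6, 9.70 to 16.5 and 1.31 to 3.70 CPM. Of the 5 markers with enough counts, Il5 and Siglecf rose in OCsEo against OCsCtr. Ccr3, Prg2 and Ear2 did not rise and were not called, at log2 fold changes of -0.29, -0.0089 and -0.20 (edgeR adjusted p = 0.0164, 0.994 and 0.938). Prg2, part of the sum without Ccr3, was at 3.85 to 7.83 CPM in OCsCtr and 4.21 to 7.25 CPM in OCsEo. Prg2 fell in OCsEoS against OCsCtr, and Il5 and Prg2 were lower in OCsEoS than in OCsEo. Il5, the cytokine gene that the donor mice carried as a transgene, had 75, 94, 163 and 44 counts in OCsEo 1 to 4, 0, 1, 0 and 0 counts in OCsCtr and 0 in every OCsEoS library. Siglecf, the gene of the sorted surface marker, had 97, 95, 128 and 88 counts in OCsEo, 9, 22, 18 and 7 in OCsCtr and 21, 45, 8 and 35 in OCsEoS. The granule gene Epx had 0, 18, 13 and 0 counts in OCsEo and 0, 3, 6 and 0 in OCsCtr. Prg3 had 2, 9, 24 and 0 counts in OCsEo and 5, 25, 3 and 7 in OCsCtr. Ear1 had 11, 29, 12 and 2 counts in OCsEo and 0, 6, 3 and 0 in OCsCtr. Epx, Prg3, Ear1, Ear6 and Il5 were at 0 in all OCsEoS libraries.

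Among the OCsEo libraries, Alox15, Cyp4f18 and Il5 had the same order in CPM, with OCsEo 3 highest, then OCsEo 2, OCsEo 1 and OCsEo 4. In OCsEo 1 to 4, Alox15 had 4.32, 4.54, 3.99 and 4.09 counts per Il5 count, and Cyp4f18 had 2.04, 2.14, 2.34 and 1.70. Alox15 had 3.34, 4.49, 5.08 and 2.05 counts per Siglecf count, a wider spread. Il5 and Siglecf are the tested eosinophil markers that were called higher in OCsEo. The study had already picked both from these libraries, as it had Alox15, so these ratios are no independent evidence. Ccr3, Prg2 and Ear2, which did not rise, were given no ratio. The counts of Alox15 per count of Cyp4f18 were 1.71 to 2.40 in OCsEo, 0.107 to 0.750 in OCsCtr and 0.136 to 0.900 in OCsEoS, so that the OCsEo libraries stood apart. The 10 neutrophil markers summed to 314 to 457 CPM in OCsCtr, 457 to 611 CPM in OCsEo and 358 to 427 CPM in OCsEoS. The part of RNA from added eosinophils, or from other cells such as neutrophils, in the Alox15 and Cyp4f18 levels was not tested. With 4 libraries, no correlation is given.

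**Figure D3:**
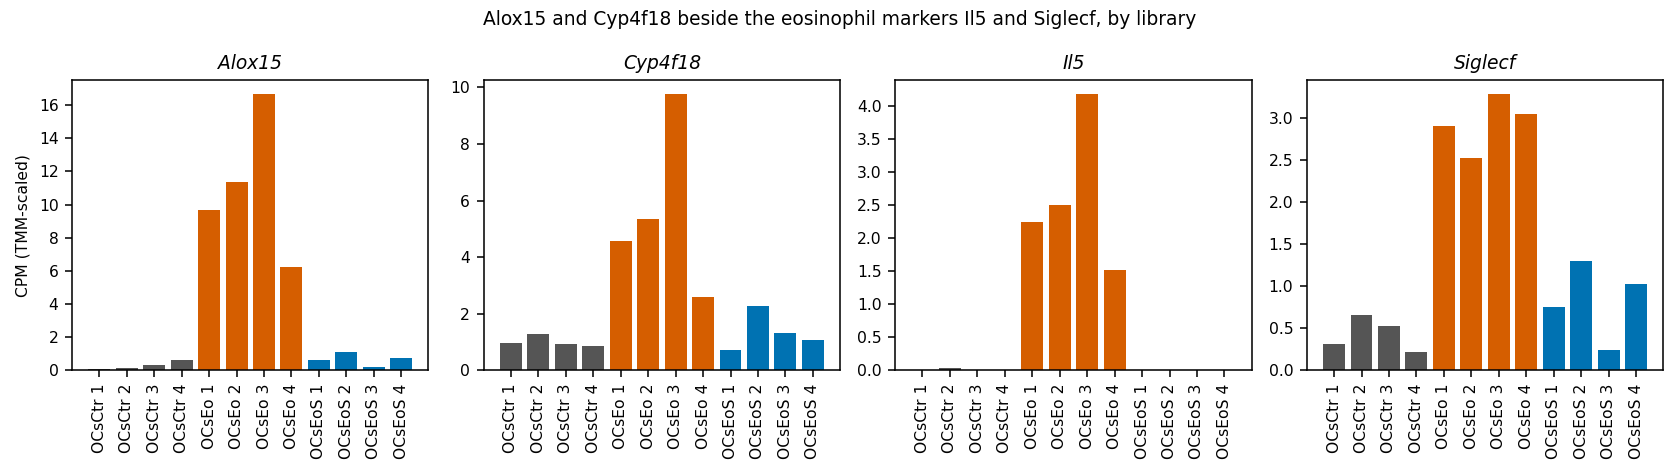
TMM-scaled CPM (y axis, bars from 0) of Alox15, Cyp4f18, Il5 and Siglecf in each of the 12 libraries (x axis). In OCsEo 1 to 4, Alox15, Cyp4f18 and Il5 share the order of their bars, highest in OCsEo 3 and lowest in OCsEo 4, whereas Siglecf is lowest in OCsEo 2.

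Alox5ap (ENSMUSG00000060063) encodes FLAP, the membrane protein that presents arachidonate to 5-lipoxygenase, and lies on chromosome 5 from 149264767 to 149288153 on the plus strand. It had 83.2, 87.2, 88.5 and 101.7 CPM in OCsCtr 1 to 4. In OCsEo 1 to 4 it had 168, 145, 184 and 177 CPM, and in OCsEoS 1 to 4 it had 181, 159, 174 and 188 CPM. Every stimulated library lay above every control, and the stimulated groups overlapped. Alox5ap rose with a log2 fold change of 0.90 in OCsEo (SE 0.08, edgeR adjusted p = 4.22e-07) and 0.96 in OCsEoS (SE 0.08, edgeR adjusted p = 4.56e-07), which are 1.87-fold and 1.94-fold changes. Both calls held without any single library, at 0.86 to 0.97 and 0.91 to 1.02. The difference OCsEoS less OCsEo was 0.06 (95% interval -0.11 to 0.22, edgeR adjusted p = 0.840). Beside it, the eosinophil markers without Ccr3 summed to 9.70 to 16.5 CPM in OCsEo and 1.31 to 3.70 CPM in OCsEoS, against 5.10 to 10.6 CPM in OCsCtr. Of these sums, Prg2 made up 4.21 to 7.25 CPM in OCsEo, 0 to 1.79 CPM in OCsEoS and 3.85 to 7.83 CPM in OCsCtr. The sum is thus no measure of added eosinophils alone. The part of eosinophil RNA in the Alox5ap levels was not tested.

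Alox5 (ENSMUSG00000025701, chromosome 6 from 116410077 to 116461178, minus strand) encodes 5-lipoxygenase, the partner of FLAP. Its levels were 16.1, 10.7, 11.2 and 16.3 CPM in OCsCtr, 14.9, 13.4, 10.4 and 14.6 CPM in OCsEo and 11.3, 14.2, 9.94 and 11.3 CPM in OCsEoS. All groups overlapped, with log2 fold changes of -0.03 in OCsEo (95% interval -0.37 to 0.31, edgeR adjusted p = 0.938) and -0.21 in OCsEoS (95% interval -0.55 to 0.13, edgeR adjusted p = 0.398). Neither interval holds the change of Alox5ap. Per length, that is in CPM per kilobase of gene length, Alox5ap exceeded Alox5 by 15.0 to 23.6 times in OCsCtr, 31.5 to 51.3 times in OCsEo and 32.3 to 50.5 times in OCsEoS.

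For the enzymes after 5-lipoxygenase, the 95% intervals lay below the change of Alox5ap. Lta4h (ENSMUSG00000015889, chromosome 10 from 93453396 to 93484896, plus strand) encodes leukotriene A4 hydrolase, which makes leukotriene B4. It had 30.2, 26.0, 26.6 and 29.9 CPM in OCsCtr, 37.2, 32.4, 33.8 and 31.7 CPM in OCsEo and 32.2, 31.9, 36.1 and 34.2 CPM in OCsEoS, without overlap between controls and either stimulated group. Its log2 fold changes of 0.26 in OCsEo (SE 0.09, edgeR adjusted p = 0.0459) and 0.26 in OCsEoS (SE 0.09, edgeR adjusted p = 0.0430) passed the adjusted p but lay under the cut-off and were not called. Without single libraries the adjusted p from edgeR was 0.0452 to 0.150 in OCsEo and 0.0379 to 0.124 in OCsEoS. Ltc4s (ENSMUSG00000020377, chromosome 11 from 50236469 to 50238616, minus strand) encodes leukotriene C4 synthase, which starts the cysteinyl leukotrienes. It had 3.05, 2.11, 3.12 and 2.89 CPM in OCsCtr, 0.598, 3.19, 2.90 and 2.22 CPM in OCsEo and 1.57, 1.53, 1.40 and 3.06 CPM in OCsEoS. The groups overlapped, with OCsEo 1 the lowest of all libraries and OCsEoS 4 well above the other OCsEoS libraries. The log2 fold changes were -0.32 (95% interval -1.15 to 0.50, edgeR adjusted p = 0.651) and -0.56 (95% interval -1.39 to 0.27, edgeR adjusted p = 0.351), which did not pass.

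Among the cyclooxygenases, Ptgs1 (ENSMUSG00000047250, chromosome 2 from 36230426 to 36252272, plus strand), the constitutive COX-1, was the abundant form. It had 11.5, 14.1, 12.5 and 13.9 CPM in OCsCtr, 13.3, 15.2, 10.4 and 17.8 CPM in OCsEo and 15.5, 15.3, 15.3 and 14.8 CPM in OCsEoS. The OCsEoS libraries lay above all controls, with a coefficient of variation of 1.91%, but the log2 fold change of 0.23 did not pass (SE 0.14, edgeR adjusted p = 0.276), nor did 0.12 in OCsEo (SE 0.14, edgeR adjusted p = 0.631). Ptgs2 (ENSMUSG00000032487, chromosome 1 from 150100031 to 150108227, plus strand) encodes the inducible COX-2. It had 12, 11, 19 and 2 counts in OCsCtr, 17, 11, 11 and 15 in OCsEo and 6, 18, 20 and 0 in OCsEoS. At this depth a difference was not detectable, with 95% intervals of the log2 fold change from -1.61 to 2.05 in OCsEo and from -1.88 to 1.81 in OCsEoS (edgeR adjusted p = 0.907 and 0.984). The count of 0 in OCsEoS 4 was below the floor.

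Of the terminal prostanoid synthases, Tbxas1 (ENSMUSG00000029925, chromosome 6 from 38875404 to 39084585, plus strand) encodes thromboxane A synthase. It had 26.3, 22.6, 28.7 and 28.9 CPM in OCsCtr, 35.7, 31.9, 34.6 and 36.7 CPM in OCsEo and 34.0, 31.6, 34.4 and 30.3 CPM in OCsEoS. Every stimulated library lay above every control, at log2 fold changes of 0.38 in OCsEo (SE 0.09, edgeR adjusted p = 0.00774) and 0.29 in OCsEoS (SE 0.09, edgeR adjusted p = 0.0316), both under the cut-off and not called. Hpgds (ENSMUSG00000029919, chromosome 6 from 65117293 to 65144908, minus strand) encodes hematopoietic prostaglandin D synthase. It had 7.14, 10.6, 9.95 and 9.27 CPM in OCsCtr, 14.3, 13.5, 11.2 and 11.4 CPM in OCsEo and 6.94, 8.13, 8.64 and 11.9 CPM in OCsEoS. The OCsEo libraries lay above all controls, but the log2 fold change of 0.44 did not pass (SE 0.17, edgeR adjusted p = 0.0757), and OCsEoS overlapped both groups (-0.05 against OCsCtr, edgeR adjusted p = 0.872). OCsEoS less OCsEo was -0.50 (edgeR adjusted p = 0.236).

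Ordered by level per length, the 10 genes spanned a wide range. In OCsCtr, Alox5ap was highest at 63.5 ± 5.64 CPM per kilobase (SD, n = 4), then Lta4h at 13.6 ± 1.06. Ltc4s at 3.79 ± 0.635, Ptgs1 at 3.35 ± 0.317, Alox5 at 3.30 ± 0.737 and Tbxas1 at 2.93 ± 0.325 each overlapped the next in that order, followed by Hpgds at 1.44 ± 0.233 and Cyp4f18 at 0.547 ± 0.0965. Alox15 at 0.122 ± 0.101 and Ptgs2 at 0.0745 ± 0.0457 were lowest and overlapped. In OCsEo, Alox5ap (119 CPM per kilobase) and Lta4h (16.4) kept the first 2 places, but Alox15 at 4.48 ± 1.77 took rank 3. From there to Hpgds at 1.96 ± 0.240 in rank 9, each gene overlapped the next, so this order is not fixed by the data. In OCsEoS, Alox15 was again in rank 9, at 0.273 ± 0.159 CPM per kilobase. The ratio of Alox15 to Alox5 per length was 0.0108 to 0.0671 in OCsCtr, 0.714 to 2.69 in OCsEo and 0.0300 to 0.133 in OCsEoS.

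**Figure D4:**
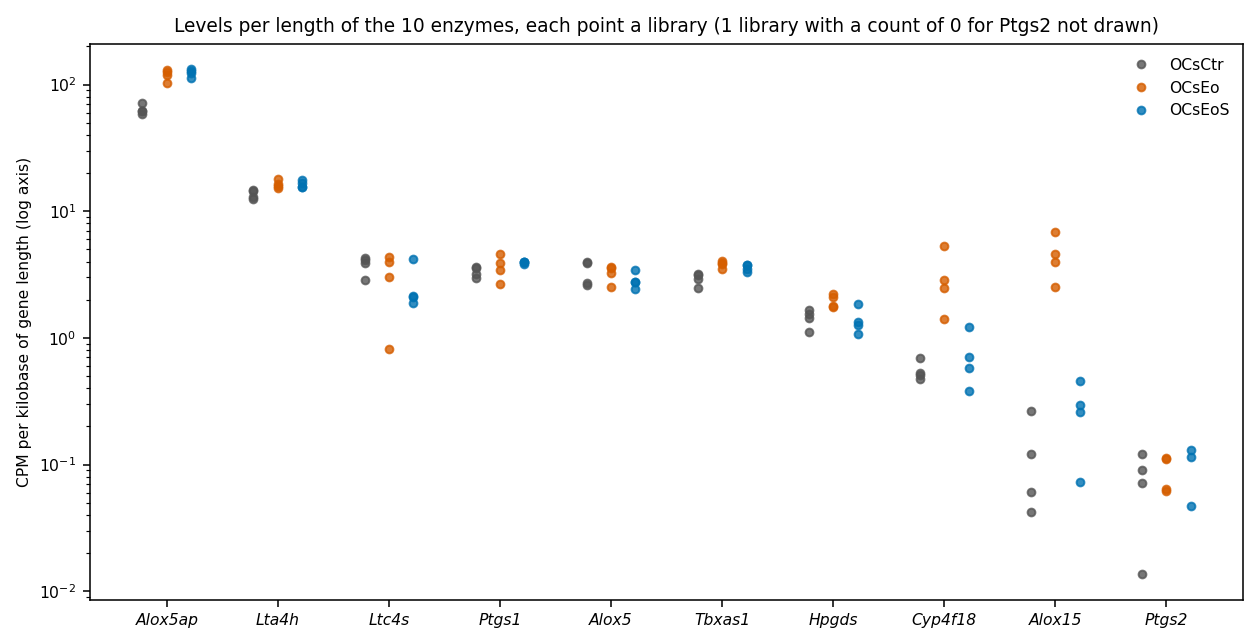
CPM per kilobase of gene length (y axis, log scale) of the 10 enzymes, ordered along the x axis by their mean in OCsCtr, each point a library. Alox15 moves from the low end in OCsCtr to the middle of the range in OCsEo, and the 1 library with a Ptgs2 count of 0 is not drawn.

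Promoter sequences, 250 bases before to 50 after the start, were taken from RefSeq for GRCm38.p6, which matched 8 of the 10 genes. Those of the 3 matched genes that passed the adjusted p in a comparison are printed 5′ to 3′ on the strand of the gene, with matches to searched motifs in capitals. They are Cyp4f18 (chr8:72009577-72009876, minus strand), Lta4h (chr10:93453146-93453445, plus strand) and Tbxas1 (chr6:38918736-38919035, plus strand, inside the span of the gene in the count table).
Cyp4f18: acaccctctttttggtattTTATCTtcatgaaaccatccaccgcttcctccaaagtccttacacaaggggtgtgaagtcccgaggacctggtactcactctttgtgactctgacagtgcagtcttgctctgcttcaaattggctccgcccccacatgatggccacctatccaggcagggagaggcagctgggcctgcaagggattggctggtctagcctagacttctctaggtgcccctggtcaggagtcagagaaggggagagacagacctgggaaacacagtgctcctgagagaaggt
Lta4h: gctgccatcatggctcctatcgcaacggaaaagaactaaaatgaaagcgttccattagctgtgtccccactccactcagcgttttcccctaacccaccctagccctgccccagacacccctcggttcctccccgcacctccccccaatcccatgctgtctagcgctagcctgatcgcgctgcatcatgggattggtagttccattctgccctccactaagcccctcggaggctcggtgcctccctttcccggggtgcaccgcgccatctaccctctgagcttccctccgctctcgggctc
Tbxas1: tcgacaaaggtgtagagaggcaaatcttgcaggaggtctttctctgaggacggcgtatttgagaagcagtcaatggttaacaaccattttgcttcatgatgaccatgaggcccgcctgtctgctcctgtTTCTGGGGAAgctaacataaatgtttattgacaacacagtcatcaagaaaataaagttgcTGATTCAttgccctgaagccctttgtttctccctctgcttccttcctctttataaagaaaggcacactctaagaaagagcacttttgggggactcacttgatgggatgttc

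Searches covered both strands. A GATA factor motif (TGATAA or AGATAA), held by 18.6% of 32851 promoters, was matched in Cyp4f18 at -231, on the reverse strand. A STAT6 motif (TTC and GAA with any 4 bases between), held by 6.95% of promoters, and an AP-1 motif (TGANTCA), held by 7.81%, were matched in Tbxas1 at -121 and -61, without overlap. The PU.1 motif GAGGAAGT (3.20% of promoters) was matched in Ptgs1 at -24 and Hpgds at -49. The NFAT motif TGGAAA (21.4%) was matched in Ltc4s at -230, and the CRE motif TGACGTCA (1.79%) in 0 of the 8. In Lta4h no motif of these was found in this window. These matches describe letters and do not show binding.

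The rest of the eicosanoid pathway was read from 5 further lists. Over all genes tested, 3.27% were called higher and 2.61% lower in OCsEo, and 3.63% higher and 4.11% lower in OCsEoS. Lists this short can hold a called gene at such shares. Of 13 tested genes of arachidonate release, 0 were called by edgeR in OCsEo (4 at an unadjusted p under 0.05) and 2 rose in OCsEoS against OCsCtr. Pla2g5, a secreted phospholipase A2, was at 1.15 CPM in the controls, 1.91 with eosinophils and 3.12 with supernatant, with a log2 fold change of 1.43 in OCsEoS (edgeR adjusted p = 0.00482). Pla2g16, a membrane phospholipase, was at 7.90, 7.84 and 11.9 CPM in the same order, with 0.60 in OCsEoS (edgeR adjusted p = 0.0126). The median log2 fold change of the 13 was -0.04 in OCsEo and -0.12 in OCsEoS. Of 7 tested genes on a list of other lipoxygenases, leukotriene enzymes and related genes, Mgst1 alone was called, higher in both groups. This microsomal glutathione transferase was at 12.7 ± 2.14 CPM in the controls (SD, n = 4) and at 31.5 ± 5.90 with eosinophils and 32.5 ± 5.65 with supernatant, which gave log2 fold changes of 1.32 and 1.36 (edgeR adjusted p = 6.70e-06 and 6.08e-06), and every stimulated library lay above every control. Mgst2 and Mgst3 were not called, at log2 fold changes of 0.20 and -0.06 in OCsEo and -0.03 and -0.21 in OCsEoS. The list medians were 0.13 and 0.11.

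Of 8 tested other prostanoid synthases, 0 were called by edgeR in any comparison, with medians of -0.02 and 0.15 in OCsEo and OCsEoS, although 1 and 2 passed the adjusted p and 2 in each an unadjusted p under 0.05. Of 10 tested genes of breakdown and export, Ptgr1, which acts in the breakdown of leukotriene B4 and prostaglandins, rose in both groups. It went from 49.9 ± 4.21 CPM to 93.2 ± 9.85 with eosinophils and 80.6 ± 9.48 with supernatant. The log2 fold changes were 0.90 and 0.69 (edgeR adjusted p = 2.43e-06 and 3.58e-05). Ephx2, the soluble epoxide hydrolase, was at 43.8 ± 4.66 CPM in the controls, 31.4 ± 2.82 with eosinophils and 19.0 ± 6.08 with supernatant. It fell by 1.20 on the log2 scale in OCsEoS (edgeR adjusted p = 3.72e-05), was 0.72 lower on that scale in OCsEoS than in OCsEo, and was at -0.48 in OCsEo, under the cut-off. The list medians were -0.10 and -0.04. Of 12 tested receptors, Cysltr1, the cysteinyl leukotriene receptor, rose from 12.4 ± 1.95 CPM to 18.2 ± 4.12 with eosinophils and 18.1 ± 0.548 with supernatant, with log2 fold changes of 0.55 and 0.54 (edgeR adjusted p = 0.0133 and 0.0112), with the OCsEo libraries overlapping the controls. The receptor medians were 0.16 and 0.21. Across all these lists 0 genes were called higher in OCsEoS than in OCsEo and Ephx2 alone was called lower, beside 0.0731% and 0.307% of all genes tested.

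**Figure D5:**
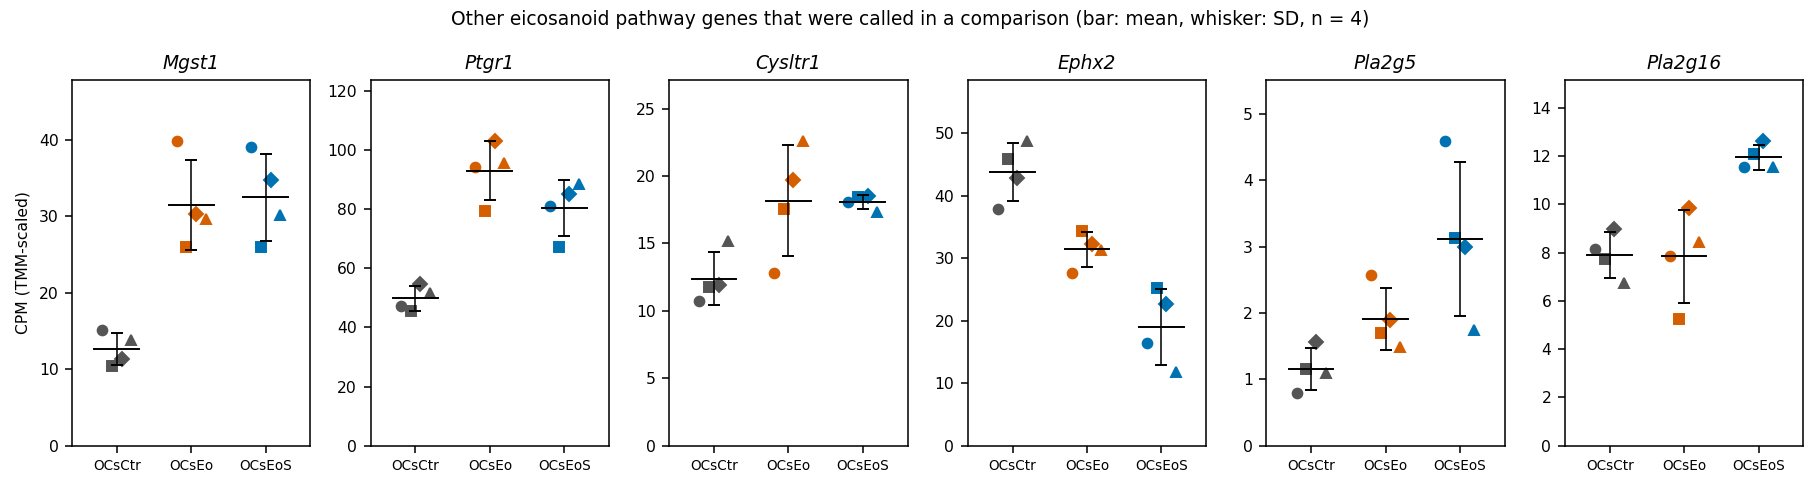
TMM-scaled CPM (y axis, from 0) of the 6 other pathway genes called in a comparison, by group, with libraries as points and mean and SD (n = 4) as bar and whiskers. Mgst1 and Ptgr1 are higher in all 8 stimulated libraries than in OCsCtr, Ephx2 is lower in them, and Pla2g16 has its 4 highest libraries in OCsEoS.

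A further 2 lists held IL-4 response and NF-kB inflammatory genes. Over all genes tested, 3.27% were called higher in OCsEo, 3.63% higher in OCsEoS and 0.307% lower in OCsEoS than in OCsEo. These lists too are short enough to hold a called gene at such shares. Of 13 tested IL-4 response genes, Arg1 and Socs1 rose in OCsEo and Arg1, Socs1, Mrc1 and Mgl2 in OCsEoS, with medians of 0.27 and 0.19. The others were not called, though Tgm2 was at -0.31 in OCsEoS (edgeR adjusted p = 0.0314), under the cut-off. Arg1, an arginase, was at 0.358 ± 0.169 CPM in the controls, 1.06 ± 0.770 with eosinophils and 3.69 ± 1.35 with supernatant, with log2 fold changes of 1.56 and 3.36 (edgeR adjusted p = 0.0341 and 8.47e-05). Among the OCsEo libraries, OCsEo 4 stood highest with 64 Arg1 counts, against 21, 28 and 26 in OCsEo 1 to 3. OCsEoS less OCsEo was 1.80 for Arg1, which did not pass (edgeR adjusted p = 0.0827). Mgl2, a macrophage lectin, was at 0.0532 CPM in the controls, below the floor, 0.192 with eosinophils and 1.12 with supernatant. Of 8 tested NF-kB inflammatory genes, the chemokine gene Ccl3 rose in OCsEo (log2 fold change 1.28, edgeR adjusted p = 9.47e-04) and was 1.06 lower on the log2 scale in OCsEoS than in OCsEo, whereas Ccl4 rose in OCsEoS (1.02, edgeR adjusted p = 0.00973). The medians were 0.21 and 0.27.

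Genes with patterns most like those of the called members were found by the correlation of log2 CPM over the 12 libraries, among 11609 genes with a mean of at least 1 CPM, as a description. Closest to Alox15 were Ctse (r = 0.97), the cathepsin E gene, Serpinb2 (0.97), a plasminogen activator inhibitor, and Ctsd (0.96), a lysosomal protease. Ctse had 5.73, 12.4 and 6.88 CPM in OCsCtr, OCsEo and OCsEoS, and Serpinb2 had 1.94, 7.31 and 2.24 CPM. Closest to Cyp4f18 were Ctse (0.93), Spns3 (0.89) and Pglyrp1 (0.89), a granule peptidoglycan recognition protein with 2.72, 8.17 and 2.57 CPM. Closest to Alox5ap were Lgals1 (0.99), which encodes galectin-1 and had 977, 1737 and 1838 CPM, Cd14 (0.99) and Rbbp4 (0.99). These values come from the same libraries and groups, and they say nothing of shared control.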

How the data were processed

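Bulk RNA-seq. was analysed for 12 libraries, 4 each of OCsCtr, OCsEo and OCsEoS. Per the paper's methods and the submitters' processing notes, the authors cleaned paired-end reads (fastp is named), aligned them with HISAT2 2.0.5 to GRCm38/mm10 and counted them with featureCounts. The deposited values are raw counts per gene, with gene lengths beside them. The annotation release and strand setting are not given in the sources used here.

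Counts were analysed in R 4.3.3. Genes with low counts were removed with filterByExpr of edgeR 4.0.16 (minimum count 10), TMM factors of 0.968 to 1.03 scaled the libraries, and 1 quasi-likelihood fit of all 12 libraries was compared between groups without a replicate block. Genes were called at a Benjamini-Hochberg adjusted p under 0.05 over all 13681 genes tested and an absolute log2 fold change over 0.5. SEs were derived from the fitted log2 fold change and the F statistic of its test, and intervals from these SEs. They are approximate for genes with few counts. Floors cover counting error only. No member was lost to the filter, so no separate permutation test was needed. All 18 replicate pairs differed by more than sampling noise (chi-square per degree of freedom 10.3 to 36.9). The steps were tested on simulated data.

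Members and gene lists were chosen with earlier results of these data known. Named beside the members were called genes of the lists, up to 4 per list and comparison, and the 3 genes closest in pattern to each called member. Gene spans are the table's own, overlaps come from GENCODE vM21, and promoters from RefSeq. Alternatives were DESeq2 1.42.0, other scalings, filters, cut-offs and sample sets, a replicate block, and each library left out in turn.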

Additional observations from a re-analysis of the deposited data

Results flagged for a closer look

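Among 30 groups of 4 libraries (10 genes in 3 groups), 1 had a library far from the others by Dixon's criterion, which chance alone meets in about 1 of 20 groups. Ltc4s had 3.06 CPM in OCsEoS 4, and its gap to the next library was 0.897 of the range of the group. The effects of the 2 stimulations differed for 2 members when the difference itself was tested. Alox15 had a log2 fold change of -4.03 in OCsEoS against OCsEo (edgeR adjusted p = 6.26e-05), with 4 of 4 OCsEoS libraries below all OCsEo libraries. Cyp4f18 had -2.05 (edgeR adjusted p = 0.0148), again with 4 of 4 libraries below. Il5 and Prg2, of the eosinophil markers, and Ngp, Mpo and Ltf, of the neutrophil markers, were also lower in this comparison, and the part of RNA from added cells in these differences was not tested.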

How the results depend on the processing

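Of the fitted member values under other settings, 625 kept their direction and side of the threshold, 7 newly passed, 5 no longer passed and 17 changed sign. The calls of Alox15, Alox5ap and Cyp4f18 in OCsEo held under every setting that tested them, except that Alox5ap in both stimulated groups fell short of a cut-off of 1, which left 0 members called higher in OCsEoS. With the adjusted p alone, the members called higher were 5 in OCsEo and 3 in OCsEoS, by the addition of Lta4h and Tbxas1, and all genes called numbered 2382, 3151 and 81 in OCsEo against OCsCtr, OCsEoS against OCsCtr and OCsEoS against OCsEo, against 804, 1058 and 52 in the reported fit. With a cut-off of 1 they numbered 136, 160 and 21. Without a filter on low counts, 2 members were called higher in OCsEoS, Alox15 being added, and 100 genes were called between the stimulated groups, where DESeq2 on all 12 libraries gave 94. With at least 10 counts in every library, 1 member, Cyp4f18, was called lower in OCsEoS than in OCsEo, as Alox15 and Ptgs2 had been removed by that filter.

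Without single libraries, the genes called numbered 664 to 980, 849 to 1345 and 17 to 62 in the 3 comparisons. The last fell to 27 without OCsEo 2, 34 without OCsEo 3, 17 without OCsEoS 3 and 34 without OCsEoS 4. Members called higher numbered 3 in OCsEo each time and 1 to 2 in OCsEoS (2 without OCsCtr 4 or OCsEoS 3, with Alox15), and members called lower in OCsEoS than in OCsEo numbered 1 to 2 (1 without OCsEo 3, OCsEoS 1 or OCsEoS 3, with Cyp4f18 lost). Changes of sign occurred for uncalled values alone. These were Alox5 (-0.12 to 0.073) and Ptgs1 (-0.0069 to 0.24) in OCsEo, Hpgds (-0.22 to 0.058) in OCsEoS, Ptgs2 in OCsEo (-0.12 to 0.57), in OCsEoS (-0.46 to 0.39) and between the stimulated groups (-0.69 to 0.16), and, between the stimulated groups, Alox5ap (-0.0092 to 0.10), Lta4h (-0.043 to 0.032) and Ptgs1 (-0.017 to 0.23). The causes of these shifts were not tested beyond the construction of each setting.

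Replicate numbers recur across groups. Deviations of same-numbered libraries correlated weakly, at -0.04 to 0.09. However, 3 of 4 libraries correlated best with their own number in each comparison, more often than random matching gives on average. Whether same-numbered libraries were prepared together was not tested. The reported fit did not take the numbers as pairs. With the replicate block, 854, 1108 and 67 genes were called, with 3 members higher in OCsEo, 1 higher in OCsEoS and 2 lower in OCsEoS than in OCsEo, and no member's call changed. Depth limits Ptgs2 (at most 20 counts) and Alox15 in OCsCtr (3 to 21 counts).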
